A study of Mus musculus with 11 samples.

Results

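Livers of wild-type C57BL/6 mice given carbon tetrachloride (CCl4) were compared with livers of wild-type mice given oil, the vehicle. The members were the 6 libraries that the labels call wild type, of 11 libraries in the series: 3 after oil (WT_Oil 1, 2 and 3) and 3 after CCl4 (WT_CCL4 4, 5 and 6). The labels give these 6 livers no engineered allele. The other 5 libraries come from livers without Hmgb2, a DNA-bending protein of chromatin (Hmgb2-/-, 2 after oil and 3 after CCl4). They share the fit that sets the error and enter 1 comparison at the end. The livers were flash frozen and RNA of the tissue was sequenced. No source used here gives sex, age, dose, or the number and timing of CCl4 treatments. Nothing says that each library is a separate mouse, so p-values measure the spread between these libraries, which may be partly technical. In bulk tissue, fewer cells of a type and less RNA per cell cannot be told apart.

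CCl4 is a liver poison that hepatocytes turn into a reactive radical. The enzyme that does most of this, CYP2E1 of the cytochrome P450 family, is concentrated in the hepatocytes around the central vein, where blood leaves the lobule, so the injury falls on this zone. The same zone takes up glutamate and fixes leftover ammonia in glutamine, while hepatocytes near the portal vein make urea. Around dying hepatocytes, phagocytes clear debris, stellate cells turn into contractile scar-forming cells, and surviving hepatocytes re-enter the cell cycle. Matrix, mitosis and macrophage genes are the best known part of this response, and the values below are mainly of other genes.

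The 6 wild-type libraries held 9759816 to 14116886 counts assigned to genes, and each of the 11 libraries had at least 1 count in 18407 to 19061 genes. Levels are counts scaled to library sizes that were adjusted by the trimmed mean of M-values (CPM). Of 19207 genes in the table, 16866 passed a filter on low counts and were tested with edgeR's quasi-likelihood test. A gene is called where its Benjamini-Hochberg adjusted p is below 0.05. Principal components were taken over the 500 most variable genes in all 11 libraries. Component 1 (49.0% of the variance of these genes) put the wild-type oil libraries between -19.7 and -13.9. WT_CCL4 4 and 6 lay at 35.4 and 37.5, and WT_CCL4 5 lay closer to oil at 18.8. Summed over 15 tested hepatocyte markers, the levels were 43360 to 63130 CPM after oil and 42480 to 59320 CPM after CCl4, so the tissue was liver in each library. Hmgb2 itself was at 1.93, 1.98 and 2.63 CPM after oil and 7.42, 3.14 and 6.69 CPM after CCl4, with an adjusted p = 0.0712 (edgeR). Hmgb2 had an adjusted p = 0.0038 in the authors' deposited DESeq2 results. In the Hmgb2-/- libraries its mean was 0.476 CPM after oil and 0.401 CPM after CCl4.

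After CCl4, 1177 genes rose and 254 fell. These are 8.48% of the genes tested, 6.98% in the upward and 1.51% in the downward direction. The counts given below for lists and families are to be read against these shares. The rising genes made up 82.3% of the calls, against 66.1% when an offset for GC content and length was added. Of the genes that rose, 1103 belong to none of the matrix, mitosis and macrophage lists. These lists are short, with 34, 32 and 22 tested genes. The 1103 therefore include further genes of these kinds, such as the matrix genes Adamts2 and Lama2. The groups' values did not overlap for 1412 of these 1431 genes, against 28.8% of all genes tested. The calls were made on the same values, so here and below a lack of overlap adds no separate support to a call. The median log2 fold change was 1.46 for the genes that rose, -1.16 for those that fell and -0.02 for all genes tested.

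The genes that rose had mostly low counts, and those that fell had higher ones, without adjustment for gene length. Their median level after oil was 3.07 CPM for genes that later rose and 33.3 CPM for genes that later fell. After CCl4 the medians were closer, at 9.01 and 14.7 CPM. The oil level is 1 side of the comparison that made the calls, so the gap after oil is partly built in. The median of all genes tested was 11.4 CPM, taken over the 6 wild-type libraries. Between 1 and 10 CPM, 10.5% of the genes rose and 1.06% fell. Above 1000 CPM the shares rest on few genes: 2 of 126 rose (1.59%) and 5 fell (3.97%). The genes that rose took 1.28%, 1.72% and 1.48% of the counts in the oil libraries and 4.43%, 3.04% and 4.55% in WT_CCL4 4, 5 and 6. The genes that fell went from 3.82%, 4.47% and 4.77% to 1.82%, 2.14% and 1.68%. WT_CCL4 5 stood nearest to oil in both directions: it was the lowest of the 3 in 84.1% of the genes that rose and the highest in 73.2% of those that fell. Without WT_CCL4 5, 1619 genes rose and 626 fell. Without WT_CCL4 4 or 6 the counts were 445 and 75, or 395 and 74. Leaving out WT_Oil 1, 2 or 3 gave 985 and 356, 566 and 128, or 448 and 101. Through each of these 6 omissions 413 calls were kept, 349 upward and 64 downward. Calls that were lost in some of them are named beside the genes.

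**Figure D1:**
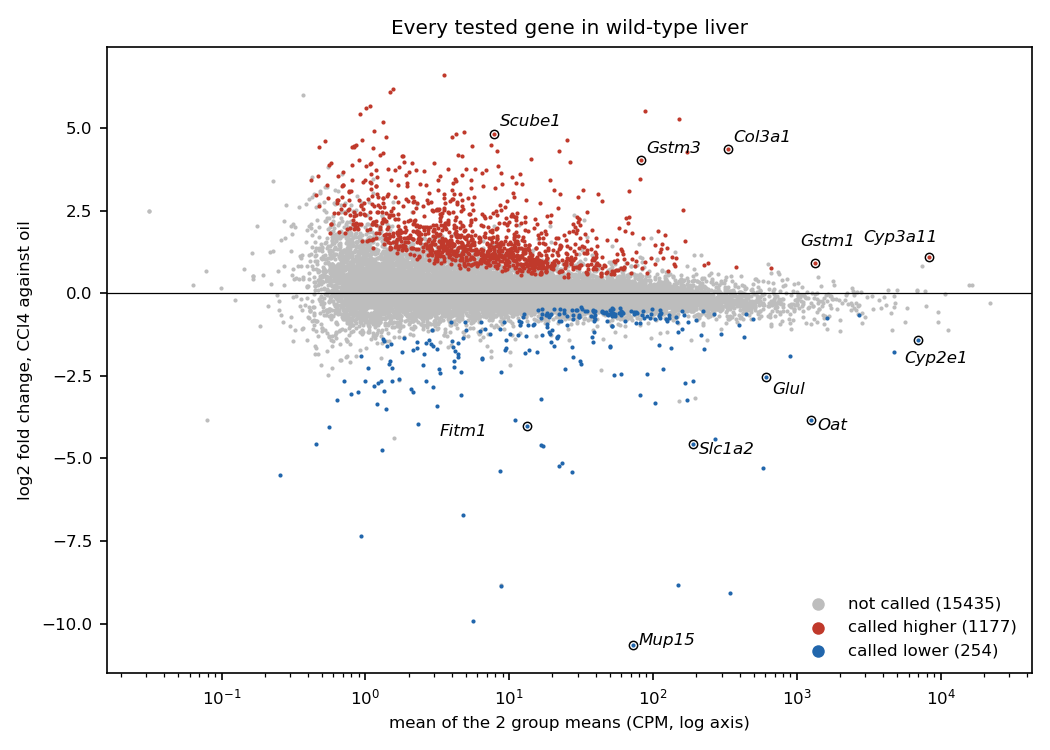
Each point is 1 of the 16866 tested genes, with its level in wild-type liver in CPM on a log axis and its log2 fold change after CCl4 against oil on the vertical axis. Genes that rose gather at the low levels, where 10.5% of the genes between 1 and 10 CPM rose, while the 254 genes that fell reach further into the high levels.

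Glul, Oat and Slc1a2, genes of hepatocytes around the central vein that handle glutamate and glutamine, fell. Glul encodes glutamine synthetase, which joins ammonia to glutamate in the innermost ring of hepatocytes, and was at 867, 1081 and 1174 CPM after oil and 135, 249 and 151 CPM after CCl4. Oat, ornithine aminotransferase, which turns ornithine towards glutamate, was at 2590, 1834 and 2617 CPM after oil and 55.3, 376 and 63.9 CPM after CCl4. Slc1a2, a carrier that brings glutamate into the cell, was at 271, 374 and 443 CPM after oil and 1.95, 43.1 and 1.32 CPM after CCl4. For all 3 genes the oil and CCl4 libraries did not overlap, and WT_CCL4 5 kept the most transcript. Glul fell by 2.54 in log2 units (SE 0.25, adjusted p = 0.000339, edgeR). Oat fell by 3.83 (SE 0.65, adjusted p = 0.00418), and Slc1a2 fell by 4.56 (SE 0.95, adjusted p = 0.0123). These 3 calls were kept without any 1 of the 6 libraries.

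The 3 genes lie on different chromosomes of the mouse build mm10, which the submitters' processing notes name. Glul is on chromosome 1, 153899943 to 153909723, plus strand. Oat is on chromosome 7, 132557477 to 132576398, minus strand. Slc1a2 is on chromosome 2, 102658658 to 102790784, plus strand. Oat lies within the listed span of Fgfr2 on the same strand, and a short antisense gene, Gm13872, lies inside Slc1a2. The gene models Teddm2 and Mir8114 overlap the start of Glul, and their counts moved with it. Teddm2 was at 87.5, 103 and 111 CPM after oil and 15, 25.2 and 15.6 CPM after CCl4, and reads of these 3 models cannot be told apart here.

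The promoter windows of the 3 genes are shown because the genes fell together, with the 250 bases before the start as RefSeq places it on GRCm38.p6, read 5′ to 3′ on the gene's strand. Capitals mark the letters of motifs that were searched on both strands: CCAAT, the TCF/LEF motif ATCAAAG that WNT signalling can use, TATAAA, the AP-1 motif TGANTCA and the PU.1 motif AGGAAGT. The window of Glul is chr1:153899679-153899928 on the plus strand, that of Oat chr7:132576399-132576648 on the minus strand and that of Slc1a2 chr2:102706188-102706437 on the plus strand.
Glul: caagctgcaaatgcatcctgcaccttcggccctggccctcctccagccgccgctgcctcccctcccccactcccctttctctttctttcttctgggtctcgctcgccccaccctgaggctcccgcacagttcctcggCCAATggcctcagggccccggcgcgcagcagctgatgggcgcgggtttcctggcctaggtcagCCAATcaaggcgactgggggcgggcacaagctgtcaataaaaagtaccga
Oat: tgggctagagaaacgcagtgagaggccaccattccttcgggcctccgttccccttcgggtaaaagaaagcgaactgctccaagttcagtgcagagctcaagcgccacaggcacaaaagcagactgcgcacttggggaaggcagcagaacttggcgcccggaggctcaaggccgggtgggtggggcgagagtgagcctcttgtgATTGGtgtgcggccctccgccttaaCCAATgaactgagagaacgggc
Slc1a2: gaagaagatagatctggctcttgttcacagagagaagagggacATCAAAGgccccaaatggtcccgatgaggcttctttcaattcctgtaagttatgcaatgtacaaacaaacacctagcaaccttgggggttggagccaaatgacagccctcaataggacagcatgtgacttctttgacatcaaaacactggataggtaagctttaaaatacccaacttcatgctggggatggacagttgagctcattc
The windows of Glul and Oat each hold 2 CCAAT motifs, and the window of Slc1a2 holds 1 TCF/LEF motif. CCAAT was present in 33.8% of all 32851 promoter windows of this length, and ATCAAAG in 3.21%. Among 175 genes that fell and have a window, the shares were 40.0% and 2.29%, and among 10934 tested genes with a window 40.0% and 2.84%. A motif is a run of letters here, and no binding was measured. The RefSeq start of Slc1a2 lies inside the longer gene model of the deposited table, so its window lies there too.

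A further carrier fell. Slc22a3, which moves organic cations such as monoamines, was at 6.7, 6.94 and 9.55 CPM after oil and 0.88, 1.75 and 1.88 CPM after CCl4 (log2 fold change -2.39, SE 0.35, adjusted p = 0.00198). Tbx3, a transcription factor of hepatocytes near the central vein, was at 17.7, 30.8 and 32.2 CPM and then 9.12, 14.8 and 10.9 CPM (log2 fold change -1.22, adjusted p = 0.0102). Tbx3 lost its call without WT_CCL4 4, WT_CCL4 6 or WT_Oil 3 (adjusted p up to 0.0598). Of 19 tested organic anion and cation carriers 2 fell and none rose, with a median of -0.52 in log2 units. The 40 genes of the urea cycle and amino acid breakdown held 1 call, that of Oat, with a median of -0.40 and 35 of 40 below 0. Without WT_CCL4 5 they held 9 falls with a median of -0.78, and without WT_Oil 1 they held 1 rise and 1 fall with a median of -0.12.

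Hnf4a and Cebpa, factors that define hepatocytes, did not pass with edgeR. Hnf4a, the master transcription factor of hepatocytes, was at 1101, 864 and 1073 CPM after oil and 699, 989 and 761 CPM after CCl4 (adjusted p = 0.333). Cebpa, another hepatocyte factor, had a log2 fold change of -0.55 (adjusted p = 0.0706) and Igf1, the liver hormone of body growth, of -0.29 (adjusted p = 0.378). In the authors' deposited DESeq2 results Cebpa had an adjusted p = 0.0204. Of 30 liver transcription factors 1 rose and 1 fell, with a median of -0.19. That is 6.67% called, against 8.48% of all genes tested. DESeq2 called 2 of them lower, and the offset for GC content and length 4. Nr0b2, a repressor that bile acids induce, was the one that rose, from 14.4, 18.1 and 12.5 CPM to 34.3, 66.9 and 41.1 CPM, highest in WT_CCL4 5. Nr0b2 lost its call without WT_Oil 3 (adjusted p up to 0.06).

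**Figure D2:**
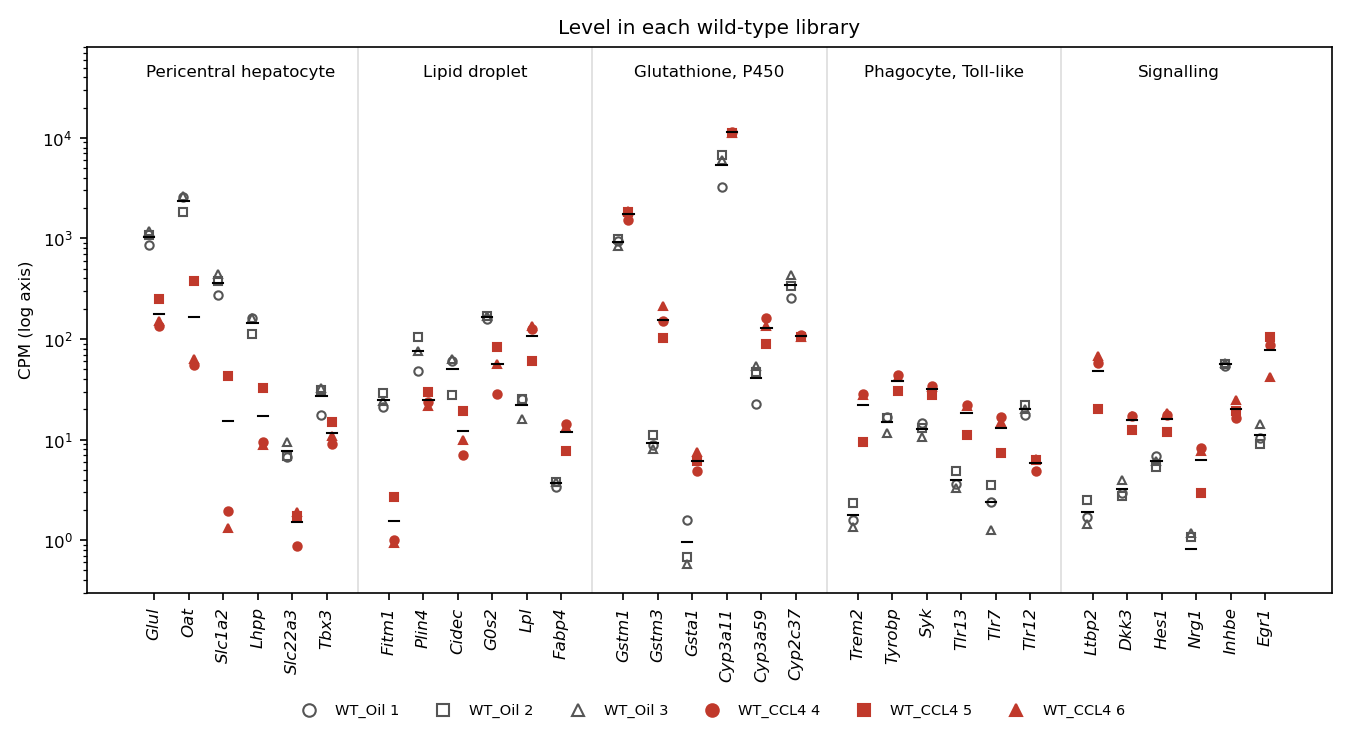
The level in CPM of selected genes in each of the 6 wild-type libraries, on a log axis, with oil and CCl4 libraries in separate colours. The oil and CCl4 points of Glul, Oat and Slc1a2 do not overlap, and WT_CCL4 5 lies between the oil libraries and the other CCl4 libraries for these 3 genes.

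The P450 enzymes of families 1 to 3, which oxidise drugs, steroids and poisons, split. Of 45 tested genes 9 rose and 8 fell, with a median of -0.04 in log2 units. Cyp2e1, the enzyme that activates CCl4, was at 8992, 9949 and 11560 CPM after oil and 2777, 5454 and 3221 CPM after CCl4 (log2 fold change -1.41, SE 0.30, adjusted p = 0.0135). Cyp2e1 lost its call without WT_CCL4 4, WT_CCL4 6 or WT_Oil 3 (adjusted p up to 0.0857). Also among those that fell, Cyp2c37 was at 256, 339.9 and 435 CPM after oil and 111, 105 and 105 CPM after CCl4 (log2 fold change -1.69, SE 0.24, adjusted p = 0.00198). Cyp2c67 was at 179.6, 180.4 and 256 CPM and then 82, 102 and 91.3 CPM (log2 fold change -1.17, adjusted p = 0.00753). Both genes had no overlap between the groups. Cyp2c69 went from 73 reads over the 3 oil libraries to 3 after CCl4, a ratio of 25.3 with a 95% exact counting interval of 8.32 to 125.

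The P450 genes that rose included an abundant one. Cyp3a11, the main CYP3A enzyme of adult mouse liver, was at 3278, 6699 and 5979 CPM after oil and 11460, 11240 and 11220 CPM after CCl4 (log2 fold change 1.09, SE 0.26, adjusted p = 0.0234). Cyp3a59, a neighbour of the same subfamily, rose from 22.4, 46.5 and 54.2 CPM to 163, 89.95 and 136 CPM (log2 fold change 1.66, adjusted p = 0.00768). Cyp2a22 rose from 1.36, 5.03 and 4.48 CPM to 15.3, 11 and 20.5 CPM (log2 fold change 2.07, adjusted p = 0.0113). Cyp2b9, an enzyme that adult male mouse liver keeps low, went from 1 read over the oil libraries to 81 after CCl4, a ratio of 78.0 (interval 13.6 to 3120). Members of these subfamilies are near-identical copies, so reads may be split between them and single members are uncertain. Cyp3a11 lost its call without WT_CCL4 4, WT_CCL4 6 or WT_Oil 3 (adjusted p up to 0.0878). Cyp2a22 lost its call without WT_CCL4 6 (adjusted p up to 0.058). Cyp2b9 lost its call without WT_Oil 2 or WT_Oil 3 (adjusted p up to 0.06). Cyp2c69 lost its call without WT_CCL4 4 or WT_CCL4 6 (adjusted p up to 0.0732). Cyp3a11 did not pass with a fit of the 6 wild-type libraries alone. Cyp2b9 and Cyp2c69 did not pass with limma-voom. In the authors' deposited DESeq2 results Cyp2b9 did not pass either (log2 fold change 1.07, adjusted p = 0.327). The rising P450 count was 4 without WT_CCL4 4, 3 without WT_CCL4 6 and 3 without WT_Oil 3. The falling P450 count was 3 without WT_CCL4 4, 2 without WT_CCL4 6, 5 without WT_Oil 2 and 4 without WT_Oil 3.

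Glutathione transferases, which couple glutathione to reactive molecules, rose in 4 of 20 cases and fell in none, with a median of 0.07. Gstm3 was at 8.74, 11.2 and 8.09 CPM after oil and 149, 102 and 212 CPM after CCl4, 16.4-fold higher by the fit (log2 fold change 4.04, SE 0.59, adjusted p = 0.00199). The abundant Gstm1 was at 938, 987 and 838 CPM and then 1524, 1845 and 1852 CPM (log2 fold change 0.92, adjusted p = 0.0145). Gsta1 was at 1.59, 0.686 and 0.585 CPM and then 4.9, 6.11 and 7.53 CPM (log2 fold change 2.72, adjusted p = 0.0131). The oil and CCl4 values of Gstm3 were far apart, while those of Gstm1 differed by less than a factor of 3 in any pair of libraries. These copies are alike too.

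NRF2 is the factor that oxidants activate. With the transferases counted in, 8 of 36 tested members of the NRF2 and glutathione list rose and none fell, with a median of 0.23. Hmox1, which breaks down haem, was at 24.9, 20.7 and 15.6 CPM after oil and 36.7, 68.8 and 38.1 CPM after CCl4 (log2 fold change 1.23, adjusted p = 0.0117), highest in WT_CCL4 5. Gpx3, a secreted glutathione peroxidase, rose from 5.56, 2.44 and 2.24 CPM to 12, 9.86 and 17.4 CPM (log2 fold change 1.96, adjusted p = 0.0104). Nqo1, a standard NRF2 readout, was at 8.74, 6.94 and 10.03 CPM and 8.74, 12.2 and 11.6 CPM (adjusted p = 0.341) and did not pass. Gstm1 lost its call without WT_CCL4 6 or WT_Oil 3 (adjusted p up to 0.0745). Gsta1 and Gpx3 lost their calls without WT_CCL4 6, WT_Oil 2 or WT_Oil 3 (adjusted p up to 0.0697 and 0.0583, respectively). Hmox1 lost its call without WT_Oil 3 (adjusted p up to 0.0587). The glutathione transferase count was 1 without WT_CCL4 6, 2 without WT_Oil 2 and 1 without WT_Oil 3. The NRF2 list count was 5 without WT_CCL4 4, 2 without WT_CCL4 6, 5 without WT_Oil 2 and 1 without WT_Oil 3.

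UDP-glucuronosyltransferases, which attach a sugar acid to drugs and bilirubin, had all 19 tested members below 0, and 2 of them fell, with a median of -0.32. An alignment was counted for each gene it overlaps, so members with overlapping spans can share reads. The 19 are therefore not 19 separate observations. Ugt3a1 was at 57.3, 79.7 and 70.7 CPM after oil and 33.2, 42.5 and 29.4 CPM after CCl4 (log2 fold change -0.98, SE 0.17, adjusted p = 0.00441). Most of these members lay lower without passing the test. Carboxylesterases, which split esters, gave 2 rises and 3 falls among 14 tested, with a median of 0.01. Ces3b fell from 616, 313 and 318 CPM to 155, 238 and 142 CPM (log2 fold change -1.22, adjusted p = 0.0234), while Ces2e rose from 159, 194 and 149 CPM to 329, 227 and 399.7 CPM (log2 fold change 0.93, adjusted p = 0.0201). Ces3b lost its call without WT_CCL4 4, WT_CCL4 6 or WT_Oil 1 (adjusted p up to 0.124). Ces2e lost its call without WT_CCL4 4, WT_CCL4 6 or WT_Oil 3 (adjusted p up to 0.109). The UGT count was 1 without WT_CCL4 4, 5 without WT_CCL4 5, 1 without WT_CCL4 6, 1 without WT_Oil 1, 1 without WT_Oil 2 and 1 without WT_Oil 3. The rising carboxylesterase count was 0 without WT_CCL4 4, 0 without WT_CCL4 6, 1 without WT_Oil 1, 1 without WT_Oil 2 and 0 without WT_Oil 3. The falling carboxylesterase count was 0 without WT_CCL4 4, 1 without WT_CCL4 6 and 1 without WT_Oil 1.

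Bile acid genes held 3 rises and 2 falls among 28, where 6.98% of all genes tested rose and 1.51% fell. Cyp8b1, the enzyme that makes cholic acid, was at 1642, 1111 and 1498 CPM after oil and 289.5, 626 and 227 CPM after CCl4 (log2 fold change -1.9, SE 0.48, adjusted p = 0.0294). Cyp7a1, the rate-limiting enzyme of bile acid synthesis, was at 137, 283 and 455 CPM and 346, 253 and 206 CPM (adjusted p = 0.906) and the groups overlapped. Cyp8b1 lost its call without WT_CCL4 4, WT_CCL4 6, WT_Oil 1, WT_Oil 2 or WT_Oil 3 (adjusted p up to 0.143). The rising bile acid count was 1 without WT_CCL4 4, 1 without WT_CCL4 6 and 0 without WT_Oil 3. The falling bile acid count was 1 without WT_CCL4 4, 5 without WT_CCL4 5, 1 without WT_CCL4 6, 1 without WT_Oil 2 and 1 without WT_Oil 3. The falling count was 6 with DESeq2 and 6 with the offset for GC content and length.

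Major urinary proteins, secreted carriers of pheromones whose genes form a cluster of near-identical copies, made up 9 of the 10 largest falls among genes at a mean of at least 1 CPM. Of 18 tested members 16 fell, with a median of -4.86 in log2 units, and their copies cannot be told apart with certainty. Mup3 was at 5791, 8104 and 8080 CPM after oil and 2496, 2182 and 1752 CPM after CCl4 (log2 fold change -1.77, SE 0.27, adjusted p = 0.00255). Mup7 was at 1215, 969 and 1224 CPM and then 46.3, 23.5 and 16.2 CPM (log2 fold change -5.3, adjusted p = 0.00311). Mup15 went from 4606 reads to 3, a ratio of 1600 with a 95% exact counting interval of 546 to 7740.

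Of 28 droplet and secretion genes 2 rose and 4 fell, with a median of -0.31. Those that fell were Fitm1, Plin4, Cidec and G0s2 (an inhibitor of fat breakdown, log2 fold change -1.57, adjusted p = 0.0469), while the droplet coat genes Plin2, Plin3 and Plin5 did not pass. Fitm1, which helps droplets bud, was at 21.2, 29 and 24.4 CPM after oil and 1.01, 2.71 and 0.942 CPM after CCl4 (log2 fold change -4.02, SE 0.45, adjusted p = 0.000628). Plin4, a droplet coat protein, fell from 47.8, 104 and 76.1 CPM to 23.7, 29.8 and 21.5 CPM (log2 fold change -1.6, adjusted p = 0.0138). Cidec, which fuses droplets, was at 60.4, 27.4 and 62.5 CPM and then 6.98, 19.4 and 9.98 CPM (log2 fold change -2.05, adjusted p = 0.0407). In contrast Lpl, the lipase that frees fatty acids from circulating fat, rose from 25.1, 25.1 and 16.1 CPM to 126, 60.2 and 135 CPM (log2 fold change 2.28, SE 0.34, adjusted p = 0.00226). Fabp4, a fatty acid carrier of fat cells and macrophages, rose from 3.41, 3.81 and 3.8 CPM to 14.3, 7.76 and 13.5 CPM (log2 fold change 1.69, adjusted p = 0.00198). Fat cell and mesothelium markers summed to 20.6 to 39.3 CPM after oil and to 50.2, 23.7 and 49.5 CPM in WT_CCL4 4, 5 and 6. Of these 11 tested markers Fabp4 rose and Cfd fell, and the part of other tissue in these changes was not tested. Cfd, the fat cell gene adipsin, had 65 reads over the oil libraries and 0 after CCl4, at least 22.5-fold lower when the group is set at a floor of 3 counts. Fitm1 shares its place with an antisense gene, Gm15932, and the use of strand in counting is not given in the sources used here. Plin4 lost its call without WT_CCL4 4, WT_CCL4 6, WT_Oil 2 or WT_Oil 3 (adjusted p up to 0.0804). Cidec lost its call without WT_CCL4 4, WT_CCL4 6, WT_Oil 1 or WT_Oil 3 (adjusted p up to 0.172). G0s2 lost its call without WT_CCL4 4, WT_CCL4 6, WT_Oil 1, WT_Oil 2 or WT_Oil 3 (adjusted p up to 0.176). Cfd lost its call without WT_CCL4 4 (adjusted p up to 0.0529). Cidec did not pass with a filter at a mean of 5 CPM. G0s2 did not pass with a filter at a mean of 5 CPM or upper quartile scaling. Nor did G0s2 pass in the authors' deposited DESeq2 results (adjusted p = 0.1125). The falling droplet count was 1 without WT_CCL4 4, 1 without WT_CCL4 6, 2 without WT_Oil 1, 2 without WT_Oil 2 and 1 without WT_Oil 3.

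The fuel pathways gave few calls. Of 29 fatty acid oxidation genes 28 lay below 0, with a median of -0.50, and 1 of them fell, the droplet gene Cidec that the list also holds. DESeq2 called 5 lower. The fatty acid oxidation count was 0 without WT_CCL4 4, 4 without WT_CCL4 5, 0 without WT_CCL4 6, 2 without WT_Oil 1 and 0 without WT_Oil 3. Respiratory chain subunits held 1 fall among 88, with 83 below 0 and a median of -0.27, and DESeq2 also called 1 lower. The respiratory chain count was 0 without WT_CCL4 4, 2 without WT_CCL4 5, 0 without WT_CCL4 6, 0 without WT_Oil 1, 0 without WT_Oil 2 and 0 without WT_Oil 3. Genes of the mitochondrial genome held no call among 32 (edgeR). At an unadjusted p below 0.05, 1 of them was higher and 2 were lower, and DESeq2 called none. De novo lipogenesis held no call among 17 with edgeR either, with 1 higher and 2 lower at an unadjusted p below 0.05, and DESeq2 called 1 lower. Cholesterol synthesis held none among 25, with a median of 0.54, 7 higher and 2 lower at an unadjusted p below 0.05, and DESeq2 called 1 higher. In a fit of the 6 wild-type libraries alone 5 cholesterol synthesis genes were called higher, with 15 higher at an unadjusted p below 0.05. Pkm, the pyruvate kinase of growing and non-hepatocyte cells, rose from 25.7, 24.5 and 19.5 CPM to 58.6, 40.4 and 67.3 CPM (log2 fold change 1.25, SE 0.20, adjusted p = 0.00327).

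Proteasome subunits, which form the machine that degrades tagged proteins, leaned downward. Of 38 tested, 36 lay below 0, 8 fell and none rose, with a median of -0.48 in log2 units. Psmc5, an ATPase of the cap, was at 62, 59.9 and 67.6 CPM after oil and 40.7, 45.9 and 38.3 CPM after CCl4 (log2 fold change -0.60, SE 0.13, adjusted p = 0.0163). Psmd4, a receptor for tagged proteins, was at 163, 139 and 164 CPM and then 75.8, 116 and 80.05 CPM (log2 fold change -0.78, adjusted p = 0.0312). Both mean levels changed by less than a factor of 2. Psmc5 lost its call without WT_CCL4 4, WT_CCL4 6 or WT_Oil 3 (adjusted p up to 0.0997). Psmd4 lost its call without WT_CCL4 4, WT_CCL4 6, WT_Oil 1, WT_Oil 2 or WT_Oil 3 (adjusted p up to 0.158). The proteasome count was 0 without WT_CCL4 4, 14 without WT_CCL4 5, 0 without WT_CCL4 6, 2 without WT_Oil 2 and 0 without WT_Oil 3. With an offset for GC content and length 17 fell, with DESeq2 15, and with upper quartile scaling 4. Ribosomal proteins, another abundant housekeeping group, held 1 rise among 84, with a median of 0.09.

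Amino acid carriers leaned upward, against the fall of Slc1a2. Of 35 tested 9 rose and 1 fell, with a median of 0.39. Slc38a1, a glutamine importer, was at 2.16, 3.12 and 3.31 CPM after oil and 9.55, 6.54 and 9.51 CPM after CCl4 (log2 fold change 1.56, SE 0.25, adjusted p = 0.00293). Slc1a5, an exchanger of glutamine and other neutral amino acids, rose from 2.61, 3.05 and 1.75 CPM to 6.73, 7.24 and 6.69 CPM (log2 fold change 1.47, adjusted p = 0.00444). Slc43a2, a carrier of large neutral amino acids, rose from 25.1, 20.4 and 17.6 CPM to 49.4, 38.7 and 57.9 CPM (log2 fold change 1.21, adjusted p = 0.00311). The oil and CCl4 libraries did not overlap for these 3 carriers, and each call was kept without any 1 of the libraries. Slc6a8, the creatine carrier, rose from 6.13, 7.39 and 5.94 CPM to 14.7, 15.4 and 20.8 CPM (log2 fold change 1.38, adjusted p = 0.00441). The rising carrier count was 5 without WT_CCL4 4, 4 without WT_CCL4 6, 4 without WT_Oil 2 and 4 without WT_Oil 3.

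**Figure D3:**
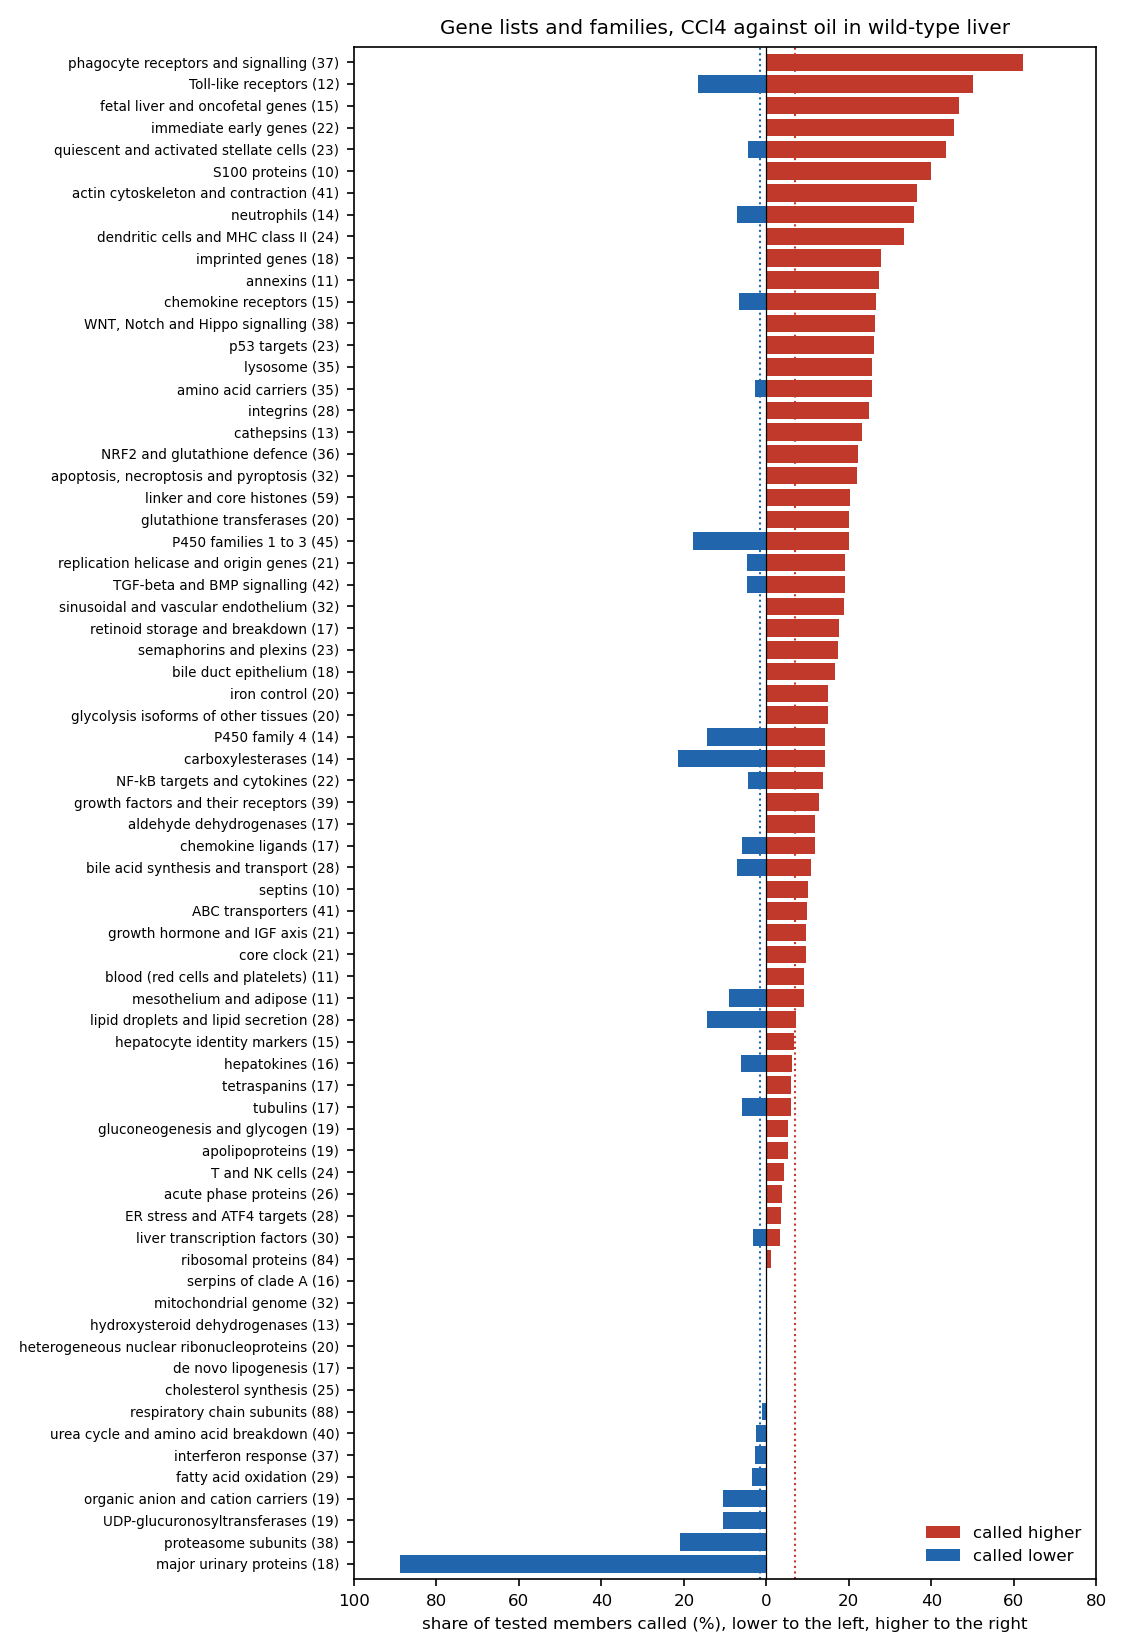
For each list or family with 10 or more tested members (number in brackets), without the matrix, mitosis and macrophage lists, the share of its tested members that rose (to the right) and fell (to the left) after CCl4 in wild-type liver, in percent, with broken lines at the shares over all tested genes, 6.98% and 1.51%. Phagocyte receptors reach furthest to the right at 62.2%, and the major urinary proteins, with 16 of 18 members, furthest to the left.

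Of 15 tested fetal and oncofetal genes, which fetal liver and liver tumours use, 7 rose and none fell, with a median of 1.42 in log2 units. Ly6d, a surface marker of young lymphoid cells and injured epithelium, was at 3.18, 2.21 and 1.66 CPM after oil and 19.2, 12.5 and 25.4 CPM after CCl4 (log2 fold change 3.03, SE 0.36, adjusted p = 0.000831). Golm1, a Golgi protein raised in liver disease, rose from 4.54, 7.09 and 4.09 CPM to 30.1, 11.5 and 33.4 CPM (log2 fold change 2.24, adjusted p = 0.0042). Akr1c18, a reductase that inactivates progesterone, went from 2 reads over the oil libraries to 270 after CCl4, a ratio of 130 with a 95% exact counting interval of 35.6 to 1080. Akr1c18 did not pass with limma-voom. The fetal count was 4 without WT_CCL4 4, 4 without WT_CCL4 6 and 4 without WT_Oil 3.

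Imprinted genes, active from 1 parental copy and high in fetal growth, rose in 5 of 18 cases and fell in none, with a median of 0.99. Plagl1, a zinc finger factor of the imprinted network, was at 0.908, 1.07 and 1.36 CPM after oil and 8.93, 5.24 and 8.57 CPM after CCl4 (log2 fold change 2.75, SE 0.35, adjusted p = 0.000987). Grb10, an adaptor that restrains insulin signalling, rose from 4.995, 5.49 and 5.16 CPM to 17.2, 12.8 and 19.3 CPM (log2 fold change 1.65, adjusted p = 0.00139). H19, the noncoding RNA of the Igf2 locus, was at 0.568, 0.305 and 0.0974 CPM and 1.45, 0.349 and 1.88 CPM and did not pass (adjusted p = 0.125). The imprinted count was 2 without WT_CCL4 4, 9 without WT_CCL4 5, 2 without WT_CCL4 6, 2 without WT_Oil 2 and 3 without WT_Oil 3.

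Bile duct epithelium markers held 3 rises among 18 tested, with a median of 0.59. Sox4, a progenitor factor, rose from 2.16, 2.13 and 0.682 CPM to 7.92, 9.42 and 9.13 CPM (log2 fold change 2.4, SE 0.38, adjusted p = 0.00301). The defining duct genes did not pass: Krt19 was at 2.27, 1.45 and 0.487 CPM after oil and 1.13, 0.698 and 1.22 CPM after CCl4 (adjusted p = 0.643), and Sox9 had a log2 fold change of 0.70 (adjusted p = 0.187).

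Targets of p53, which answers DNA damage, rose in 6 of 23 cases and fell in none, with a median of 0.42. Phlda3, a brake on AKT, was at 0.908, 0.533 and 0.39 CPM after oil and 5.72, 3.14 and 5.93 CPM after CCl4 (log2 fold change 3.02, SE 0.50, adjusted p = 0.0035). Eda2r, a death-receptor relative, rose from 1.14, 0.838 and 0.974 CPM to 9.18, 3.14 and 9.04 CPM (log2 fold change 2.86, adjusted p = 0.00663). Btg2, an antiproliferative and immediate early gene, rose from 19.4, 8.31 and 8.47 CPM to 44.7, 64.4 and 40.1 CPM (log2 fold change 2.06, adjusted p = 0.00282). The best known target did not pass: Cdkn1a was at 19.1, 4.5 and 14.5 CPM after oil and 20.4, 23.7 and 30.3 CPM after CCl4 (adjusted p = 0.429), with the 2 groups overlapping. The p53 target count was 3 without WT_CCL4 4, 3 without WT_CCL4 6, 3 without WT_Oil 2 and 3 without WT_Oil 3.

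Cell death genes rose in 7 of 32 cases, with a median of 0.41, and these act on both sides. Bcl2l1, which keeps cells alive, was at 40.9, 34 and 36.6 CPM after oil and 52.3, 56.2 and 66.8 CPM after CCl4 (log2 fold change 0.65, adjusted p = 0.0172), and Birc5, a survival and mitosis protein, was at 1.82, 1.45 and 1.75 CPM and then 8.55, 3.84 and 7.35 CPM (log2 fold change 1.98, adjusted p = 0.00311). Bax, which promotes death, rose from 13.8, 12.2 and 10.5 CPM to 17.2, 17.8 and 19.6 CPM (log2 fold change 0.58, adjusted p = 0.0387). Bcl2l1 lost its call without WT_CCL4 6, WT_Oil 2 or WT_Oil 3 (adjusted p up to 0.0984). In the authors' deposited DESeq2 results Bcl2l1 did not pass (adjusted p = 0.273). Bax lost its call without WT_CCL4 4, WT_CCL4 6, WT_Oil 2 or WT_Oil 3 (adjusted p up to 0.172). Bax did not pass with a fit of the 6 wild-type libraries alone. The cell death count was 2 without WT_CCL4 4, 1 without WT_CCL4 6, 3 without WT_Oil 1, 1 without WT_Oil 2 and 1 without WT_Oil 3.

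Histone genes, whose replication-dependent copies are made in S phase, rose in 12 of 59 cases and fell in none, with a median of 0.75. Hist1h1b, a linker histone, was at 1.25, 0.838 and 0.682 CPM after oil and 6.47, 2.88 and 6.88 CPM after CCl4 (log2 fold change 2.56, SE 0.42, adjusted p = 0.00334). Histone copies are alike, so single members are uncertain. The histone count was 2 without WT_CCL4 4, 2 without WT_CCL4 6, 3 without WT_Oil 2 and 2 without WT_Oil 3.

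Immediate early genes, which cells switch on within minutes of a signal, rose in 10 of 22 cases and fell in none, with a median of 0.87. Junb, a subunit of AP-1, was at 26.1, 16.8 and 17.2 CPM after oil and 40.9, 62.6 and 36.1 CPM after CCl4 (log2 fold change 1.22, SE 0.25, adjusted p = 0.0113). Klf6, a zinc finger factor of injury, rose from 13.2, 19.97 and 17.7 CPM to 36.8, 28.6 and 44.3 CPM (log2 fold change 1.1, adjusted p = 0.0131). Here WT_CCL4 5 was the highest CCl4 library on average over the list. Of 48 lists and families with a median above 0 and 5 or more tested members, it was the highest in 8 and the lowest in 34. Junb lost its call without WT_Oil 2 or WT_Oil 3 (adjusted p up to 0.0567). Klf6 lost its call without WT_CCL4 6 or WT_Oil 3 (adjusted p up to 0.0742). The immediate early count was 5 without WT_CCL4 4, 5 without WT_CCL4 6, 3 without WT_Oil 2 and 3 without WT_Oil 3.

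Phagocyte receptors and their signalling proteins had the largest share of risen members among the lists drawn above, at 62.2%. Of 37 tested members all 37 lay above 0, 23 rose and none fell, with a median of 1.04 in log2 units. Trem2, a lipid-sensing receptor of scavenging macrophages, was at 1.59, 2.36 and 1.36 CPM after oil and 28.5, 9.42 and 27.8 CPM after CCl4 (log2 fold change 3.6, SE 0.54, adjusted p = 0.00226). Tyrobp, the adaptor that carries its signal, rose from 16.6, 16.2 and 11.6 CPM to 43.5, 30.3 and 41.8 CPM (log2 fold change 1.38, adjusted p = 0.0038). Syk, the kinase this adaptor recruits, rose from 14.5, 13 and 10.6 CPM to 34.2, 27.9 and 33.3 CPM (log2 fold change 1.33, adjusted p = 0.00323). These 3 genes encode the receptor, adaptor and kinase of 1 pathway, but they were named for their small p-values. All 37 tested members lay above 0, so the joint rise is not particular to that pathway. Fcgr3, an antibody receptor, rose from 14.1, 11.9 and 10.9 CPM to 31.2, 21.4 and 30.04 CPM (log2 fold change 1.17, adjusted p = 0.00753). The risen members also included complement C1q chains and receptors (C1qb, C1qc, C3ar1, C5ar1) and subunits of the oxidase that makes superoxide (Cybb, Cyba, Ncf1, Ncf4). Many of these genes are used by macrophages, whose number was not measured. The phagocyte count was 8 without WT_CCL4 4, 6 without WT_CCL4 6, 11 without WT_Oil 2 and 7 without WT_Oil 3.

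Toll-like receptors, which sense microbial and cellular debris, split by member. Of 12 tested 6 rose and 2 fell. Tlr13, which senses bacterial ribosomal RNA in mice, was at 3.63, 4.88 and 3.31 CPM after oil and 22.1, 11.2 and 21.7 CPM after CCl4 (log2 fold change 2.2, SE 0.27, adjusted p = 0.000839). Tlr7, a sensor of single-stranded RNA, rose from 2.38, 3.51 and 1.27 CPM to 16.7, 7.42 and 14.8 CPM (log2 fold change 2.42, adjusted p = 0.00334). Tlr1, which pairs with TLR2 to sense lipoproteins, rose from 1.48, 1.37 and 1.36 CPM to 7.48, 2.79 and 6.59 CPM (log2 fold change 2.0, adjusted p = 0.009). In the other direction Tlr12, a profilin sensor of mice, was at 17.7, 22.1 and 20.4 CPM and then 4.84, 6.2 and 6.4 CPM (log2 fold change -1.79, SE 0.17, adjusted p = 0.000266). Tlr5, the flagellin sensor, fell from 7.04, 11.2 and 12.3 CPM to 1.26, 4.54 and 2.26 CPM (log2 fold change -1.95, adjusted p = 0.0135). Tlr5 lost its call without WT_CCL4 4, WT_CCL4 6 or WT_Oil 3 (adjusted p up to 0.0744). The falling receptor count was 1 without WT_CCL4 4, 1 without WT_CCL4 6 and 1 without WT_Oil 3.

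PU.1 is the lineage factor of macrophages and its gene, Spi1, was at 5.56, 7.09 and 4.77 CPM after oil and 14.4, 9.34 and 14.3 CPM after CCl4 (log2 fold change 1.12, adjusted p = 0.0385). Spi1 lost its call without WT_CCL4 4, WT_CCL4 6, WT_Oil 1, WT_Oil 2 or WT_Oil 3 (adjusted p up to 0.15). The promoter window of Tlr1, chr5:64933559-64933808 on the minus strand, is shown because it holds the PU.1 motif AGGAAGT beside 3 CCAAT motifs, of which 2 overlap on opposite strands. Its build, length and capitals are those of the windows above.
Tlr1: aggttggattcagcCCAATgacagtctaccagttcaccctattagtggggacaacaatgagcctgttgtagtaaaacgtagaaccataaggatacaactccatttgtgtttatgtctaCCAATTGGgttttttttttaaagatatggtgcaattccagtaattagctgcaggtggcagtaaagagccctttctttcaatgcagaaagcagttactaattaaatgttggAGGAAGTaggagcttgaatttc
The PU.1 motif was in 12.4% of 840 windows of genes that rose, 2.86% of 175 windows of genes that fell, 8.73% of 10934 windows of tested genes and 7.69% of all windows. Of 17 risen phagocyte members with a window 4 held it: Fcgr1, C1qb, C1qc and C5ar1. It was in 1 of 4 windows of risen Toll-like receptors, that of Tlr1, in 0 of 7 of risen dendritic cell and class II genes, in 0 of 7 of risen lysosomal genes, in 1 of 13 of risen cytoskeleton genes and in 1 of 7 of risen immediate early genes. Whether PU.1 binds there was not measured.

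Of 24 dendritic cell and class II genes 8 rose and none fell, with a median of 1.22. Siglech, a marker of plasmacytoid dendritic cells, was at 0.114, 0.915 and 0.682 CPM after oil and 5.47, 2.71 and 3.86 CPM after CCl4 (log2 fold change 2.72, SE 0.48, adjusted p = 0.00488). Flt3, the cytokine receptor of dendritic precursors, rose from 0.454, 0.533 and 0.292 CPM to 2.51, 1.57 and 3.01 CPM (log2 fold change 2.42, adjusted p = 0.00873). Itgax, which encodes CD11c, rose from 2.04, 2.13 and 0.877 CPM to 9.49, 6.8 and 10.7 CPM (log2 fold change 2.4, adjusted p = 0.00543). All 3 were scarce after oil and did not overlap between the groups. The dendritic count was 4 without WT_CCL4 4, 4 without WT_CCL4 6, 4 without WT_Oil 2 and 4 without WT_Oil 3.

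Chemokine receptors, which steer leukocytes, rose in 4 of 15 cases and fell in 1. Cx3cr1, the fractalkine receptor of monocytes, was at 1.14, 0.762 and 0.292 CPM after oil and 12.2, 2.79 and 11.1 CPM after CCl4 (log2 fold change 3.58, SE 0.58, adjusted p = 0.00329). Cxcr5, the follicle-homing receptor of B cells, rose from 0.341, 0.229 and 0.195 CPM to 1.7, 1.66 and 1.51 CPM (log2 fold change 2.65, adjusted p = 0.00341). Ccr2, which draws monocytes from blood, rose from 0.908, 2.36 and 2.63 CPM to 12, 3.58 and 11.1 CPM (log2 fold change 2.15, adjusted p = 0.0158). Cxcr4, a receptor that many kinds of leukocyte carry, rose from 3.63, 2.59 and 0.877 CPM to 8.74, 7.15 and 8.19 CPM (log2 fold change 1.77, adjusted p = 0.03). Ccr2 lost its call without WT_CCL4 4 or WT_CCL4 6 (adjusted p up to 0.0747). Cxcr4 lost its call without WT_CCL4 4, WT_CCL4 6, WT_Oil 2 or WT_Oil 3 (adjusted p up to 0.101). Ccr2 did not pass with limma-voom. The rising chemokine receptor count was 2 without WT_CCL4 4 and 2 without WT_CCL4 6.

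T cells and interferon gave little. Of 24 T and NK cell genes 1, Il7r, rose, with a median of 0.26, and Cd3e, part of the T cell receptor complex, was at 0.227, 0.0762 and 0.487 CPM after oil and 0.566, 0.174 and 0.0942 CPM after CCl4. Of 37 interferon response genes none rose and 1, Ifit1, fell, with a median of -0.03. That median was 0.02 with upper quartile scaling, where 2 rose and none fell. Il7r lost its call without WT_CCL4 4, WT_CCL4 6, WT_Oil 1, WT_Oil 2 or WT_Oil 3 (adjusted p up to 0.164). Ifit1 lost its call without WT_CCL4 4, WT_CCL4 6, WT_Oil 1 or WT_Oil 3 (adjusted p up to 0.191). Il7r did not pass with a fit of the 6 wild-type libraries alone or limma-voom. Ifit1 did not pass with a fit of the 6 wild-type libraries alone, limma-voom, an offset for GC content and length, a filter at a mean of 5 CPM or upper quartile scaling. Neutrophil genes were low: S100a9, a calcium-binding protein of their granules, was at 0.908, 1.3 and 0.292 CPM and 2.96, 8.29 and 3.77 CPM (log2 fold change 2.52, adjusted p = 0.0175), and its partner S100a8 did not pass (adjusted p = 0.11). Of 14 neutrophil genes 5 rose and 1, Il1b, fell, with 13 above 0 and a median of 1.7 in log2 units. S100a9 lost its call without WT_Oil 3 (adjusted p up to 0.0762). S100a9 did not pass with limma-voom. In the authors' deposited DESeq2 results S100a9 and Il1b did not pass (adjusted p = 0.134 and 0.343, respectively). The neutrophil count was 3 without WT_CCL4 4, 2 without WT_CCL4 6, 2 without WT_Oil 2 and 0 without WT_Oil 3.

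Lysosomal genes rose in 9 of 35 cases and fell in none, with a median of 0.20. Ctsk, a collagen-degrading protease, was at 0.568, 1.22 and 1.07 CPM after oil and 8.49, 3.58 and 9.13 CPM after CCl4 (log2 fold change 2.84, SE 0.40, adjusted p = 0.00183). Atp6v0d2, a proton pump subunit of osteoclasts and macrophages, rose from 3.75, 3.51 and 3.02 CPM to 21.7, 11 and 18.9 CPM (log2 fold change 2.33, adjusted p = 0.000987). Cd63, a membrane protein of lysosomes and exosomes, rose from 2.73, 2.36 and 2.24 CPM to 16.8, 6.46 and 18.2 CPM (log2 fold change 2.5, adjusted p = 0.00188). The protease Ctsd rose from 572, 467 and 425 CPM to 833, 696 and 973 CPM, and its span overlaps the gene model Gm49369. Ctsd lost its call without WT_CCL4 4, WT_CCL4 6, WT_Oil 2 or WT_Oil 3 (adjusted p up to 0.106). The lysosomal count was 5 without WT_CCL4 6 and 14 without WT_Oil 1.

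**Figure D4:**
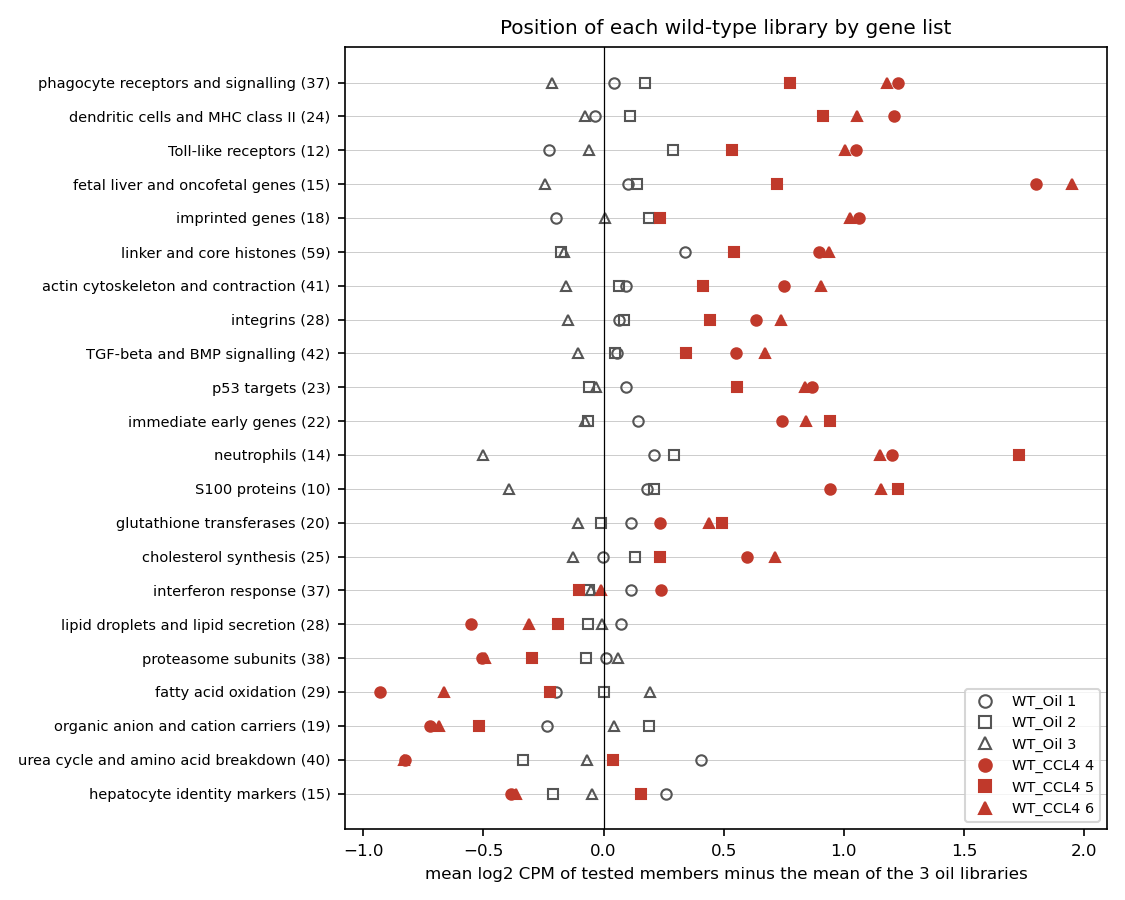
For each gene list, the mean over its members of log2 CPM minus the mean of the 3 oil libraries, drawn for each of the 6 wild-type libraries. WT_CCL4 5 is the lowest CCl4 library for phagocyte and fetal liver genes and the highest for immediate early genes and neutrophils.

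Signals that pass between cells changed at several levels. In the TGF-beta and BMP list 8 of 42 genes rose and 2 fell, with a median of 0.39. Ltbp2, a matrix protein of the family that binds latent TGF-beta, was at 1.7, 2.52 and 1.46 CPM after oil and 57.8, 20.1 and 67 CPM after CCl4 (log2 fold change 4.64, SE 0.55, adjusted p = 0.000807). Fstl1, a secreted modulator of BMP signals, rose from 6.92, 6.94 and 4.97 CPM to 44.6, 14.5 and 53.5 CPM (log2 fold change 2.58, adjusted p = 0.00262). The ligand itself did not pass: Tgfb1 was at 8.86, 6.48 and 5.65 CPM and 10.1, 8.72 and 9.89 CPM (adjusted p = 0.324). Id1, a direct target of BMP signals, rose from 3.18, 2.9 and 3.99 CPM to 12.4, 9.16 and 16.9 CPM (log2 fold change 1.93, adjusted p = 0.0116). Inhbe, a hepatocyte activin subunit, fell from 54, 56.6 and 57.7 CPM to 16.3, 19.2 and 24.6 CPM (log2 fold change -1.49, SE 0.17, adjusted p = 0.000717). Id1 lost its call without WT_CCL4 6 or WT_Oil 2 (adjusted p up to 0.0632). The rising TGF-beta count was 5 without WT_CCL4 4, 2 without WT_CCL4 6, 4 without WT_Oil 2 and 5 without WT_Oil 3.

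In iron control, the relative of the iron hormone moved and the hormone itself did not pass. Hamp2 was at 4.31, 3.28 and 3.02 CPM after oil and 13, 17.7 and 22.9 CPM after CCl4 (log2 fold change 2.34, SE 0.29, adjusted p = 0.000855). Hamp, hepcidin, was at 674, 437 and 703 CPM and 252, 550.2 and 264 CPM (adjusted p = 0.325). The 2 genes are close copies, so reads may be split between them.

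WNT, Notch and Hippo genes rose in 10 of 38 cases and fell in none, with a median of 0.28. Dkk3, a secreted relative of WNT inhibitors, was at 2.95, 2.74 and 3.99 CPM after oil and 17.2, 12.4 and 17.3 CPM after CCl4 (log2 fold change 2.27, SE 0.26, adjusted p = 0.000673). Hes1, a target of Notch, rose from 6.92, 5.33 and 6.14 CPM to 17.5, 11.9 and 18.6 CPM (log2 fold change 1.39, adjusted p = 0.00588), and Hey1, another, rose from 0.568, 0.457 and 0.39 CPM to 2.83, 1.13 and 3.39 CPM (log2 fold change 2.36, adjusted p = 0.0173). The ligands Wnt4, Wnt5a and Wnt9b and the receptor Notch1 were also among those that rose. Hey1, Wnt4 and Notch1 lost their calls without WT_CCL4 4, WT_CCL4 6, WT_Oil 2 or WT_Oil 3 (adjusted p up to 0.0848, 0.156 and 0.127, respectively). Wnt5a and Wnt9b lost their calls without WT_CCL4 4, WT_CCL4 6, WT_Oil 1, WT_Oil 2 or WT_Oil 3 (adjusted p up to 0.146 and 0.181, respectively). Wnt4 did not pass with a fit of the 6 wild-type libraries alone. Wnt9b did not pass with limma-voom. Notch1 did not pass with an offset for GC content and length. The WNT and Notch count was 2 without WT_CCL4 4, 2 without WT_CCL4 6, 3 without WT_Oil 2 and 2 without WT_Oil 3.

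Growth factors and their receptors rose in 5 of 39 cases, which were Pdgfrb, Pdgfra, Pdgfc, Angpt2 and Nrg1. That is 12.8%, against 6.98% of all genes tested. Pdgfc did not pass in the authors' deposited DESeq2 results (adjusted p = 0.114). Pdgfrb, the receptor on stellate cells and pericytes, was at 18.5, 9.15 and 7.6 CPM after oil and 47.7, 32.2 and 50.2 CPM after CCl4 (log2 fold change 1.9, SE 0.31, adjusted p = 0.00341). Pdgfra, its partner on fibroblasts, rose from 15.2, 16.2 and 20.1 CPM to 43.6, 37.3 and 52.3 CPM (log2 fold change 1.37, adjusted p = 0.00334). Nrg1, a ligand of ERBB receptors, rose from 0.227, 1.07 and 1.17 CPM to 8.17, 2.97 and 7.63 CPM (log2 fold change 2.87, adjusted p = 0.00429). Both PDGF receptors were separated between the groups. Igfbp7, a secreted binding protein of IGFs, rose from 73.3, 66.5 and 69.8 CPM to 188, 147 and 203 CPM (log2 fold change 1.36, SE 0.15, adjusted p = 0.000577), and its listed span overlaps Polr2b on the other strand. The growth factor count was 3 without WT_CCL4 4, 3 without WT_CCL4 6 and 3 without WT_Oil 3.

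Stellate cell genes rose in 10 of 23 cases and fell in 1, with a median of 0.84. Postn, a matricellular protein of repair, was at 9.99, 11.1 and 12 CPM after oil and 46.2, 21.5 and 43.4 CPM after CCl4 (log2 fold change 1.75, SE 0.25, adjusted p = 0.00185). Cygb, a globin that quiescent stellate cells hold, rose from 12.2, 7.55 and 7.01 CPM to 19.9, 17.2 and 22.3 CPM (log2 fold change 1.16, adjusted p = 0.00876). The one that fell was Ecm1, a secreted protein of resting stellate cells, at 136, 99.7 and 102 CPM after oil and 58.1, 91.2 and 58.1 CPM after CCl4 (log2 fold change -0.70, adjusted p = 0.0425). Ecm1 lost its call without WT_CCL4 4, WT_CCL4 6, WT_Oil 1, WT_Oil 2 or WT_Oil 3 (adjusted p up to 0.201). Ecm1 did not pass with a fit of the 6 wild-type libraries alone, a filter at a mean of 5 CPM or upper quartile scaling. The rising stellate count was 5 without WT_CCL4 4, 4 without WT_CCL4 6, 6 without WT_Oil 2 and 5 without WT_Oil 3.

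The cytoskeleton changed with them. Of 41 actin and contraction genes 15 rose and none fell, with 38 above 0 and a median of 0.74. Vim, the intermediate filament of mesenchymal cells, was at 30.4, 26.3 and 17.6 CPM after oil and 122, 58.1 and 147 CPM after CCl4 (log2 fold change 2.14, SE 0.30, adjusted p = 0.00184). Coro1a, an actin regulator of leukocytes, rose from 7.04, 4.57 and 5.75 CPM to 15.3, 12.1 and 16.4 CPM (log2 fold change 1.35, adjusted p = 0.00291). Tagln2, an actin-bundling protein, rose from 5.56, 5.49 and 4.29 CPM to 19.2, 10.7 and 19.97 CPM (log2 fold change 1.7, adjusted p = 0.00411). The members that rose thus include cytoskeleton genes of mesenchymal cells and of leukocytes. The actin count was 5 without WT_CCL4 4, 5 without WT_CCL4 6 and 5 without WT_Oil 3.

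Integrins, which tie cells to matrix, rose in 7 of 28 cases, with a median of 0.47. Itga8, the nephronectin receptor chain that stellate cells carry, was at 16, 16.5 and 15.4 CPM after oil and 69.9, 33.6 and 75.9 CPM after CCl4 (log2 fold change 1.91, SE 0.27, adjusted p = 0.00184). Plxna4, a semaphorin co-receptor, rose from 9.31, 11.1 and 7.31 CPM to 28.9, 18.5 and 30.6 CPM (log2 fold change 1.49, adjusted p = 0.00184), as 1 of 4 rises among 23 semaphorins and plexins. Anxa2, a membrane-binding annexin, rose from 10.7, 14.9 and 7.79 CPM to 44.9, 19.2 and 58.1 CPM (log2 fold change 1.86, adjusted p = 0.0083). All 3 calls were kept in each omission of a library. The integrin count was 3 without WT_CCL4 4, 3 without WT_CCL4 6 and 3 without WT_Oil 3.

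Vessel genes rose in 6 of 32 cases, with 29 above 0 and a median of 0.30. That is 18.8%, against 6.98% of all genes tested. Cd34, a marker of capillary endothelium that healthy sinusoids carry little of, was at 3.18, 3.05 and 2.24 CPM after oil and 11.9, 8.46 and 13.9 CPM after CCl4 (log2 fold change 2.02, SE 0.26, adjusted p = 0.00123). Vcam1, an adhesion molecule that arrests leukocytes on the vessel wall, rose from 34.2, 20.7 and 27.5 CPM to 92.5, 78.4 and 78.2 CPM (log2 fold change 1.6, SE 0.19, adjusted p = 0.000807). Both genes have an antisense partner in the table. The endothelial count was 2 without WT_CCL4 4, 2 without WT_CCL4 6, 2 without WT_Oil 2 and 2 without WT_Oil 3.

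Among the smallest p-values in the upward direction were secreted proteins of connective tissue. Sparcl1, a relative of SPARC, was at 10.9, 10.4 and 10.8 CPM after oil and 44.7, 38 and 52.9 CPM after CCl4 (log2 fold change 2.08, SE 0.18, adjusted p = 0.000155). Scube1, a secreted and surface protein with EGF-like domains, rose from 0.795, 0.533 and 0.292 CPM to 19.3, 8.03 and 18.4 CPM (log2 fold change 4.82, adjusted p = 0.000155). Cpxm1, a carboxypeptidase-like protein, rose from 1.25, 1.14 and 0.877 CPM to 15.7, 10.2 and 21.2 CPM (log2 fold change 3.84, adjusted p = 0.000282). Each CCl4 library lay above each oil library for all 3. Olfml3, an olfactomedin-like protein, rose from 5.22, 4.19 and 3.51 CPM to 32.4, 16.9 and 36.7 CPM (log2 fold change 2.74, adjusted p = 0.000577), Svep1, an adhesion protein, from 2.5, 1.98 and 2.34 CPM to 22.9, 14.1 and 30.2 CPM (log2 fold change 3.31, adjusted p = 0.000577), and Dpt, dermatopontin, from 2.38, 4.57 and 2.73 CPM to 26.2, 15 and 28.2 CPM (log2 fold change 2.81, adjusted p = 0.000577). S100g, a vitamin D-dependent calcium carrier of the gut, went from 1 read over the oil libraries to 107, a ratio of 103 with a 95% exact counting interval of 18.1 to 4100. S100g lies within Ctps2 on the other strand, so reads of the pair may be mixed if strand was not used, and Ctps2 had a log2 fold change of 0.33 (adjusted p = 0.277).

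Markers of tissues that could be carried along stayed at low levels or did not pass. Of 7 tested pancreas and gut genes and 2 tested muscle genes none was called (edgeR), with 1 pancreas or gut gene lower at an unadjusted p below 0.05, and DESeq2 called 0 of the 9. Of 11 blood genes 1, Pf4 of platelets, rose, and Hba-a1, a haemoglobin chain, was at 64.7, 76.4 and 57.1 CPM after oil and 61.4, 65.6 and 39.8 CPM after CCl4. Wt1 of the mesothelium, the liver's covering, was at 1.25, 1.07 and 1.07 CPM and 4.34, 1.4 and 3.2 CPM (adjusted p = 0.0562, edgeR). In the authors' deposited DESeq2 results Wt1 had an adjusted p = 0.021. Pf4 lost its call without WT_CCL4 4 or WT_Oil 2 (adjusted p up to 0.0631). Pf4 did not pass with limma-voom.

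The response of livers without Hmgb2 was set against the wild-type response by the difference between the 2 log2 fold changes, Hmgb2-/- minus wild type. That difference passed for 17 of 16866 genes (0.101%). They are not all separate loci, since Teddm2 and Mir8114 overlap each other and the start of Glul, and Gm43109 overlaps Vcam1. Tlr12 fell in wild type as given above and was at 9.76 and 8.83 CPM in the 2 Hmgb2-/- oil libraries and 12, 11.9 and 13.1 CPM in the 3 Hmgb2-/- CCl4 libraries, a log2 fold change of 0.41. The difference was 2.2 (SE 0.26, adjusted p = 0.0159). Inhbe was at 24.1 and 31.1 CPM and then 35.4, 37.2 and 43.8 CPM without Hmgb2, with a difference of 1.98 (SE 0.26, adjusted p = 0.0159). Vcam1, which rose in wild type, was at 40.5 and 36 CPM and then 25.9, 36.3 and 29.8 CPM without Hmgb2, with a difference of -1.92 (SE 0.28, adjusted p = 0.0259). For Tlr12 and Inhbe the Hmgb2-/- oil libraries already stood below the wild-type oil libraries, and for Vcam1 they stood above them. The differences thus rest on the oil levels as well as on the CCl4 levels. Without WT_Oil 3 none of the 17 passed, with adjusted p-values of Tlr12, Inhbe and Vcam1 up to 0.0552, 0.0567 and 0.0973 over the omissions. The number of genes was 6 without WT_CCL4 4, 285 without WT_CCL4 5, 4 without WT_CCL4 6, 40 without WT_Oil 1 and 4 without WT_Oil 2. Glul did not pass: it was at 1104 CPM in the oil mean and 818 CPM in the CCl4 mean without Hmgb2, a difference of 2.11 with an adjusted p = 0.057.

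**Figure D5:**
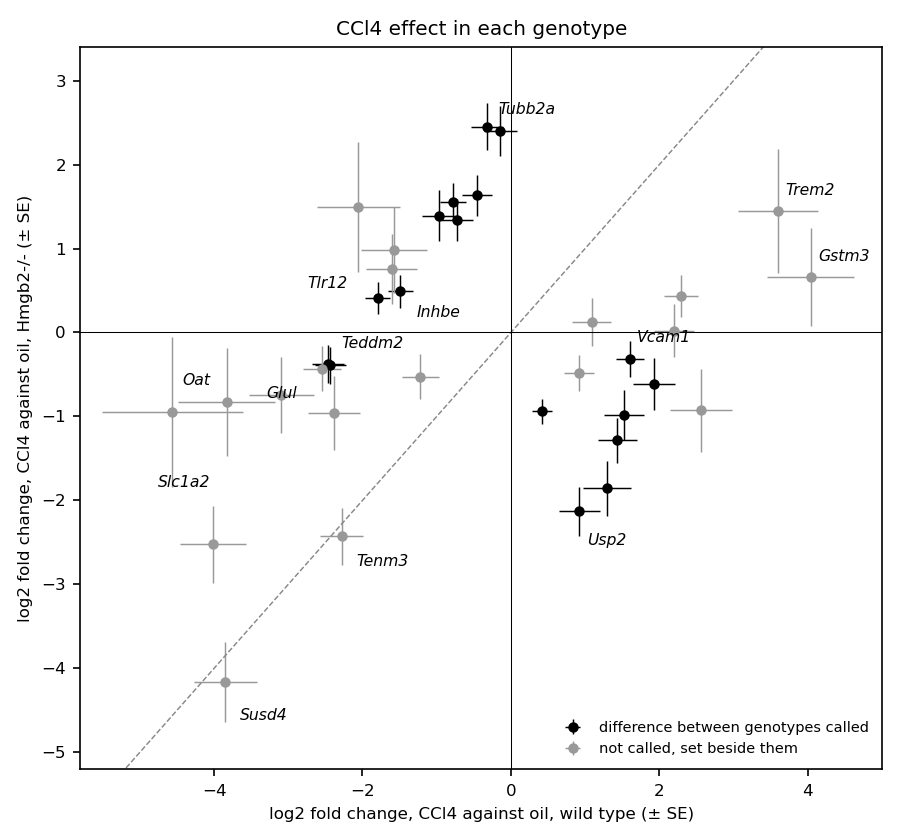
The log2 fold change after CCl4 in wild-type liver (horizontal) and in Hmgb2-/- liver (vertical) for the 17 genes whose difference passed (black) and for other genes set beside them (grey), with bars of 1 SE. Each genotype has its own oil libraries. Tlr12 and Inhbe lie below 0 in wild type and slightly above 0 without Hmgb2, and Vcam1 lies above 0 in wild type and slightly below 0 without it.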

How the data were processed

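RNA of flash-frozen liver was sequenced in 11 libraries, of which the 6 wild-type ones are described. Per the labels' protocols the kit was a stranded total RNA kit, while the design text speaks of capped RNA. Bowtie, DESeq2 and the builds mm10 and GRCm38 are named without versions in the submitters' processing notes. The deposited raw counts take an alignment for each gene it overlaps by at least 1 base and a pair once, per the file headers. Whether strand was used in counting is not stated there. The authors' FPKM values, counts per kilobase of exon and library size, served as a check of the count columns. The authors' log2 ratios and their score, -10 times the log10 of an adjusted p from DESeq2, were read as deposited and entered no test here. Genes that the authors set aside for very low or very high counts are not analysed here. Of 19207 genes, 2096 had no symbol, and 2069 of these were named by their identifier from a reference table.

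The test was edgeR 4.0.16 (R 4.3.3) on the deposited counts, with TMM scaling, genes kept by a count minimum of 10 and a total of 15, and 1 fit of 4 group means over all 11 libraries, which share 1 estimate of the spread. The SE of a log2 fold change is its size over the square root of F. Alternatives were DESeq2 1.42.0, limma-voom (limma 3.58.1), other scalings and filters, and omission of each wild-type library. The script was tested on simulated counts with known changes. Each wild-type library held 9759816 to 14116886 counts, so 3 counts are 0.212 to 0.307 CPM. Exact intervals of read ratios and floors cover counting error only. Groups with 3 or fewer reads are given as read ratios without a fitted fold.

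Genes were named by a rule: the 10 largest changes in each direction among called, non-overlapping genes at a mean of at least 1 CPM, the 8 largest changes of mean CPM, the 8 smallest p-values in each direction, up to 4 called members of each list or family in its main direction and up to 2 in the other, the 8 smallest p-values between genotypes, and 24 fixed genes such as Hnf4a and Tgfb1. Bax, Spi1, Wnt4, Wnt5a, Wnt9b, Notch1, the phagocyte members given by name alone and the genes of the closing paragraphs fall outside this rule and were chosen after their values were seen. The 44 lists and 36 families, like the comparison itself, were chosen with earlier results of these data known, so their counts are descriptions without a test. Promoter windows, 250 bases before the start, come from RefSeq on GRCm38.p6, and motifs were searched on both strands.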

Additional observations from a re-analysis of the deposited data

Results flagged for a closer look

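The response to CCl4 differed between wild-type and Hmgb2-/- livers, by edgeR's test of the difference itself, for 12 genes that the report names or that have a small p for this difference. The difference is the log2 fold change without Hmgb2 minus that in wild type. Tlr12 (2.2, adjusted p = 0.0159) and Inhbe (1.98, adjusted p = 0.0159) fell in wild type, and so did Teddm2 (2.04, adjusted p = 0.0276) and Mir8114 (2.08, adjusted p = 0.0281). The spans of Teddm2 and Mir8114 overlap each other and the start of Glul, and reads of the 3 cannot be told apart. These 2 models are thus not separate findings, and Glul itself did not pass (adjusted p = 0.057, edgeR). Vcam1 rose in wild type and differed by -1.92 (adjusted p = 0.0259).

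Clock genes and kinases were among the others. Ciart, a repressor of the clock, was at 3.29, 2.44 and 4.58 CPM after oil and 10.2, 7.76 and 6.97 CPM after CCl4 in wild type, and at 22.8 and 24.6 CPM and 3.58, 7.01 and 9.05 CPM without Hmgb2, a difference of -3.15 (adjusted p = 0.0259). Usp2, a ubiquitin protease under the clock, was at 11.1, 4.88 and 7.7 CPM and 14.5, 14.8 and 15.1 CPM in wild type, and at 49.96 and 39 CPM and 8.12, 13.6 and 8.55 CPM without Hmgb2, a difference of -3.05 (adjusted p = 0.0159). In both genes the Hmgb2-/- oil libraries stood above all other groups. The time of day at which livers were taken is not given in the sources used here, and its part in these differences was not tested.

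Tubb2a, a tubulin, was at 52.9, 57.1 and 78.4 CPM and 35.5, 57.9 and 57.7 CPM in wild type and at 13.9 and 13.4 CPM and 65.9, 92.3 and 66.1 CPM without Hmgb2, a difference of 2.77 (adjusted p = 0.0159). Here too the Hmgb2-/- oil libraries stood apart, on the low side. Map2k6, a kinase of the p38 pathway, differed by -2.72 (adjusted p = 0.0228), Efhd2, a calcium-binding protein, by -1.36 (adjusted p = 0.0259), and the gene models Gm43361 by 2.33 (adjusted p = 0.0159) and 2010003K11Rik by 2.54 (adjusted p = 0.0259). None of the 12 passed without WT_Oil 3, with adjusted p-values from 0.0552 for Tlr12 to 0.107 for Mir8114 as the largest over the omissions.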

How the results depend on the processing

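The counts of calls moved more with the settings than the directions did. No paired analysis was possible because no replicate number is shared between groups. Of 1177 genes that rose and 254 that fell, a filter at a mean of 5 CPM, which tests fewer genes, left 654 and 112. DESeq2 called 456 lower and an offset for GC content and length, chosen after seeing the data, 680 lower, and the cause was not tested. The number of genes whose response differed between genotypes was 372 with DESeq2 and 82 with that offset, against 17. Leaving out 1 wild-type library at a time gave 395 to 1619 risen genes, 74 to 626 fallen genes and 0 to 285 genes that differed between genotypes. RLE scaling (1164 and 258), upper quartile scaling (1361 and 190), limma-voom (1019 and 245), no filter (1179 and 254), leaving out mitochondrial and the 50 top genes (1200 and 239) and a fit of the 6 wild-type libraries alone (1127 and 214) stayed within 1.5 times. No named gene that was called changed sign in the settings run. Of 257 named genes, 248 kept their side of the threshold with the GC offset and 244 with upper quartile scaling. With limma-voom 217 of 257 did, with DESeq2 251 of 256 and with the 6 wild-type libraries alone 218 of 246. Omission of 1 library mostly kept fewer. Without WT_CCL4 4, 5 or 6 the numbers were 154 of 252, 245 of 257 and 149 of 252. Without WT_Oil 1, 2 or 3 they were 209 of 256, 179 of 256 and 154 of 257. Depth limits the rarest transcripts, since 3 counts are 0.212 to 0.307 CPM here.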

Other observations

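Genes in none of the lists or families made up 1071 of the 1431 calls. From these, genes named by the rule above, gene models known by number, pseudogenes and microRNAs were left out. Of the rest, the 20 with the smallest p in each direction, a rule set after seeing the data, kept their calls without any 1 of the 6 libraries. Ccdc80, a secreted protein of connective tissue, was at 16.6, 14.9 and 10.8 CPM after oil and 135, 58.8 and 171 CPM after CCl4 (log2 fold change 3.11, SE 0.35, adjusted p = 0.000673). Plat, the tissue plasminogen activator that dissolves clots, rose from 1.25, 0.61 and 0.974 CPM to 11.8, 5.24 and 13 CPM (log2 fold change 3.43, adjusted p = 0.000831). App, the amyloid precursor protein, had a small but tight rise from 76.6, 77 and 74.2 CPM to 159.8, 138 and 181 CPM (log2 fold change 1.07, SE 0.14, adjusted p = 0.00146). In App the lowest CCl4 library stood well above the highest oil library. Cd93, a receptor of endothelial and myeloid cells, rose from 19.2, 19.9 and 20.9 CPM to 47.7, 40.8 and 60.6 CPM (log2 fold change 1.31, adjusted p = 0.000805), Robo2, a guidance receptor that stellate cells use, from 3.41, 5.49 and 3.8 CPM to 24.1, 14.3 and 25.6 CPM (log2 fold change 2.31, adjusted p = 0.000807), and Btla, an inhibitory receptor of lymphocytes, from 0.454, 0.61 and 1.27 CPM to 8.93, 5.58 and 4.14 CPM (log2 fold change 2.99, adjusted p = 0.0014).

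Among the falls outside the lists, Lhpp, a histidine phosphatase, was at 160, 111 and 163 CPM after oil and 9.37, 32.9 and 8.76 CPM after CCl4 (log2 fold change -3.09, SE 0.44, adjusted p = 0.00192). Hhex, a homeobox factor of liver development, fell from 72.2, 69.4 and 65.3 CPM to 33, 29.9 and 41.2 CPM (log2 fold change -0.99, adjusted p = 0.00305). E2f8, a repressor of the cell cycle, fell from 23.8, 36.4 and 32.4 CPM to 12.1, 13.3 and 11.2 CPM (log2 fold change -1.34, adjusted p = 0.00391), while mitosis genes rose. Susd4, an inhibitor of complement, was at 21.3, 17.2 and 23 CPM and then 1.95, 1.05 and 1.13 CPM (log2 fold change -3.85, SE 0.42, adjusted p = 0.000577). Tenm3, a teneurin of cell contacts, was at 31.6, 44 and 45.2 CPM and then 5.34, 11 and 8.76 CPM (log2 fold change -2.28, adjusted p = 0.00103). Susd4 and Tenm3 fell in livers without Hmgb2 as well, by 4.16 and 2.43 on the log2 scale (adjusted p = 0.00219 and 0.00785, edgeR).

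Beside the falls of Glul, Oat, Slc1a2, Lhpp, Tbx3 and Cyp2e1, several genes that report WNT activity around the central vein did not pass. Axin2 was at 7.83, 12.9 and 17.1 CPM after oil and 13.8, 15.6 and 15.7 CPM after CCl4 (adjusted p = 0.574). Lgr5, a receptor that marks the innermost hepatocytes, was at 7.72, 7.39 and 8.67 CPM and 4.4, 6.72 and 4.99 CPM (log2 fold change -0.57, adjusted p = 0.127). The feedback inhibitors Znrf3, Rnf43, Nkd1 and Notum had log2 fold changes of 0.15, 0.08, 0.08 and 0.31 (adjusted p = 0.603, 0.849, 0.882 and 0.236). Cyp1a2, a P450 enzyme of the same zone, was at 230.1, 308 and 299.9 CPM and 299, 267 and 309 CPM (log2 fold change 0.06, adjusted p = 0.932). These genes were chosen after their values were seen, and the difference between them and Glul was not tested.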
